A study of Bos taurus with 12 samples.

Results

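Genes of fatty acid uptake and beta-oxidation, 33 of the 13668 genes tested, were followed in the biceps brachii of 12 bulls. They were chosen by symbol: any probe other than a control whose name, gene number, accession or description on the array pointed to 1 of the 33 symbols counted as theirs. In all 39 probes did so, and the brightest probe over the 12 arrays stood for each gene. All 33 genes were measured and all 33 passed the filter on dim probes, which required 4 or more of the 12 arrays to show a signal well above background.

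Messenger RNA was measured on 1-colour Agilent bovine arrays, 1 array per animal and 4 animals per group. All animals were males of 18 to 20 months. The controls were untreated. The dexamethasone group received the synthetic glucocorticoid dexamethasone in the feed, 0.75 mg per head for 42 days. The combination group received 0.66 mg of dexamethasone per head for 21 days together with the beta-adrenergic agonist clenbuterol for 28 days, starting at 2 mg per head, raised to 4 mg after the first week and to 6 mg after the second. The treated groups therefore differ in dexamethasone dose and duration as well as in clenbuterol, and these cannot be told apart. The 12 animals came from 24, 8 per group, and were picked for RNA quality.

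Muscle fibres take long-chain fatty acids from the blood through membrane proteins, bind them in the cytosol and activate them to acyl-CoA. Carnitine carries the acyl group across the mitochondrial membranes, and each turn of the beta-oxidation spiral then shortens the chain and passes electrons to the respiratory chain. Peroxisomes run a parallel spiral for very long and branched chains. The nuclear receptors PPARA and PPARD, paired with RXRA, switch on many of these genes in muscle during fasting and endurance work, and slow oxidative fibres hold more of the machinery than fast glycolytic fibres.

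Levels are given as log2 of the signal relative to the array's 75th percentile, so 1 unit is a doubling, and group differences are log2 changes. A level of 1 gene is not comparable with that of another, since probes differ in brightness. The share of spots well above background ran from 53.2% to 68.7% per array. Precision is limited by having 4 arrays in each group. The 8 listed muscle fibre genes, among them ACTA1, CKM and TTN, were all measured, as the labelled tissue requires. The array files give the scan day. Control replicate 4, dexamethasone replicates 1 to 3 and combination replicates 1 to 3 were scanned on day 2 and the other 5 arrays on days 1, 3 and 4. The negative-control spots read 67.3 to 92.5 on day 2 and 30.8 to 43.7 on the other days. Scan day is partly confounded with treatment, so the member medians and some member values are also given by scan day. By the file headers the combination arrays were on slides 3 and 5, the dexamethasone arrays on slides 2 and 4 and the controls on slides 1 and 2. No combination array shared a slide with another group, so slide and combination treatment cannot be told apart.

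No member passed the test in any comparison (limma, adjusted p under 0.05 over all 13668 genes). With dexamethasone against control, 0 of 33 members passed, where 0.615% of all genes did. With the combination against control, 0 of 33 passed, where 0.0439% of all genes did. With the combination against dexamethasone alone, 0 of 33 passed, where 0.0146% of all genes did. The lowest adjusted p of a member was 0.257, 0.299 and 0.311 in the same order (limma).

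Most members lay above the controls after dexamethasone and below the dexamethasone group in the combination. After dexamethasone 31 of 33 members lay above the controls, MLYCD and ACADL being the other two, while 54.6% of all genes lay above. The median member difference was 0.40 and the median over all genes 0.03. In the combination group 22 of 33 members lay above the controls, where 53.7% of all genes did, with a median of 0.17 against 0.03. Between the treated groups 8 of 33 members were higher in the combination, where 52.3% of all genes were, with a median of -0.20 against 0.02. These are descriptions: members vary together across animals, and the comparisons share the control or the dexamethasone arrays. The counts for the combination include PPARD, which passed the filter on dim probes only through that group.

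At an unadjusted p under 0.05 (limma), 5 of 33 members stood out after dexamethasone, CD36, FABP3, ACSL1, HADHA and PLIN5, where 12.3% of all genes did. In the combination against control there were 3 of 33, FABP3, PLIN5 and PPARD, where 12.1% of all genes did. In the combination against dexamethasone there were 5 of 33, ACSL1, ACADSB, ETFDH, HADH and PPARD, where 11% of all genes did. PPARD passed the filter on dim probes only through the combination group, where it read high. Its entries in these counts are therefore no evidence of a difference. After dexamethasone 2 of 33 members, CD36 and ACSL1, did not overlap the controls, where 6.44% of all genes did not overlap. The combination and the controls gave 0 of 33, where 8.21% of all genes did not overlap. The treated groups gave 1 of 33, ACSL1, where 5.3% of all genes did not overlap. The members' counts are thus near or below the shares of all genes.

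**Figure D1:**
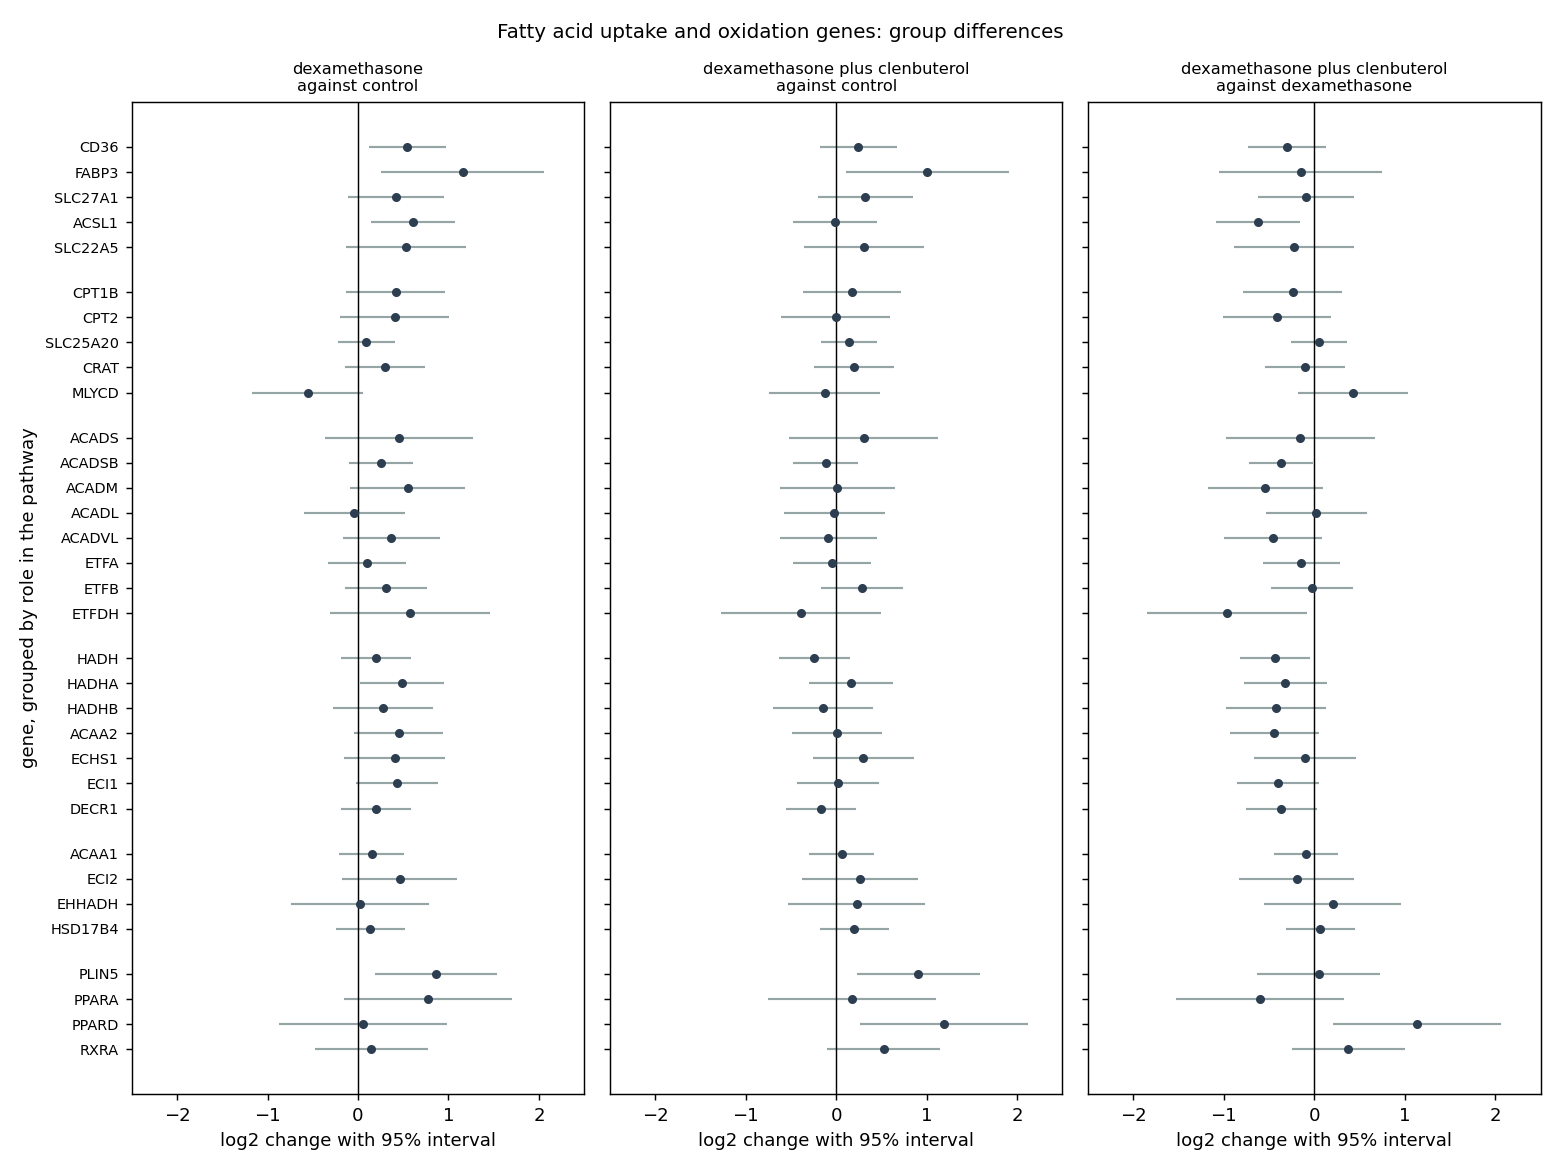
Log2 change (points) with its 95% interval (bars, limma) for each of the 33 members, grouped by role from uptake at the top to receptors at the bottom, in the 3 comparisons. After dexamethasone 31 of 33 points lie to the right of 0, and the interval excludes 0 for 5, 3 and 5 members from left to right. The middle and right counts include PPARD, which passed the filter on dim probes only through the combination group and is no evidence of a difference.

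Uptake and activation come first in the pathway. After dexamethasone 5 of 5 genes lay above the controls with a median of 0.55, and in the combination 4 of 5 did with a median of 0.30. None of the 5 passed the test. CD36, the fatty acid translocase of the cell membrane, read -0.33, -0.12, -0.01 and -0.27 in the 4 controls, 0.29, 0.41, 0.53 and 0.22 after dexamethasone, and 0.51, -0.21, 0.33 and -0.35 in the combination. Every dexamethasone animal was above every control, while the combination animals were split, with 2 above and 2 within or below the control range. The difference after dexamethasone was 0.55 ± 0.20 (SE, n = 4 per group; limma adjusted p = 0.278), a 1.46-fold higher mean, and the combination differed from control by 0.25 ± 0.20 (limma adjusted p = 0.637). A second CD36 probe gave 0.59 and 0.30 for the same differences and correlated with the first at 0.89 over the 12 arrays.

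FABP3 codes for the cytosolic fatty acid binding protein of muscle and heart. It read 4.33, 4.08, 5.80 and 4.67 in controls, 6.16, 5.76, 6.55 and 5.04 after dexamethasone, and 5.38, 6.27, 6.09 and 5.16 in the combination. Control replicate 3 was as high as treated animals, and the other 3 controls were below all 8 treated animals. The means were 4.72 ± 0.76 (SD, n = 4), 5.88 ± 0.64 and 5.72 ± 0.54. The log2 changes against control were 1.16 ± 0.41 (SE) after dexamethasone, 2.23-fold, and 1.01 ± 0.41 in the combination, 2.01-fold (limma adjusted p = 0.273 and 0.368). The difference after dexamethasone was the largest of any member in that comparison, and neither passed.

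ACSL1, the main long-chain acyl-CoA synthetase of muscle, was the member in which the treated groups parted. It read 5.39, 4.79, 5.21 and 4.86 in controls, 5.61, 5.62, 6.05 and 5.41 after dexamethasone, and 4.61, 5.33, 4.98 and 5.29 in the combination. The 4 dexamethasone animals lay above all 8 others, and the combination animals overlapped the control range. The difference was 0.61 ± 0.21 (SE) against control and -0.62 ± 0.21 for the combination against dexamethasone (limma adjusted p = 0.257 and 0.311). The combination against control gave -0.01 ± 0.21.

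SLC27A1, a fatty acid transport protein of the membrane, read 1.70, 2.51, 2.59 and 2.58 in controls, 2.37, 2.46, 3.12 and 3.09 after dexamethasone, and 2.67, 2.48, 2.67 and 2.86 in the combination. Control replicate 1 stood apart below the rest and the groups overlapped. Its log2 changes were 0.42 ± 0.24 (SE) and 0.32 ± 0.24 (limma adjusted p = 0.525 and 0.614). Without control replicate 1 they were 0.20 and 0.11. SLC22A5, which imports carnitine, gave 0.53 ± 0.30 after dexamethasone and 0.30 ± 0.30 in the combination (limma adjusted p = 0.514 and 0.713).

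**Figure D2:**
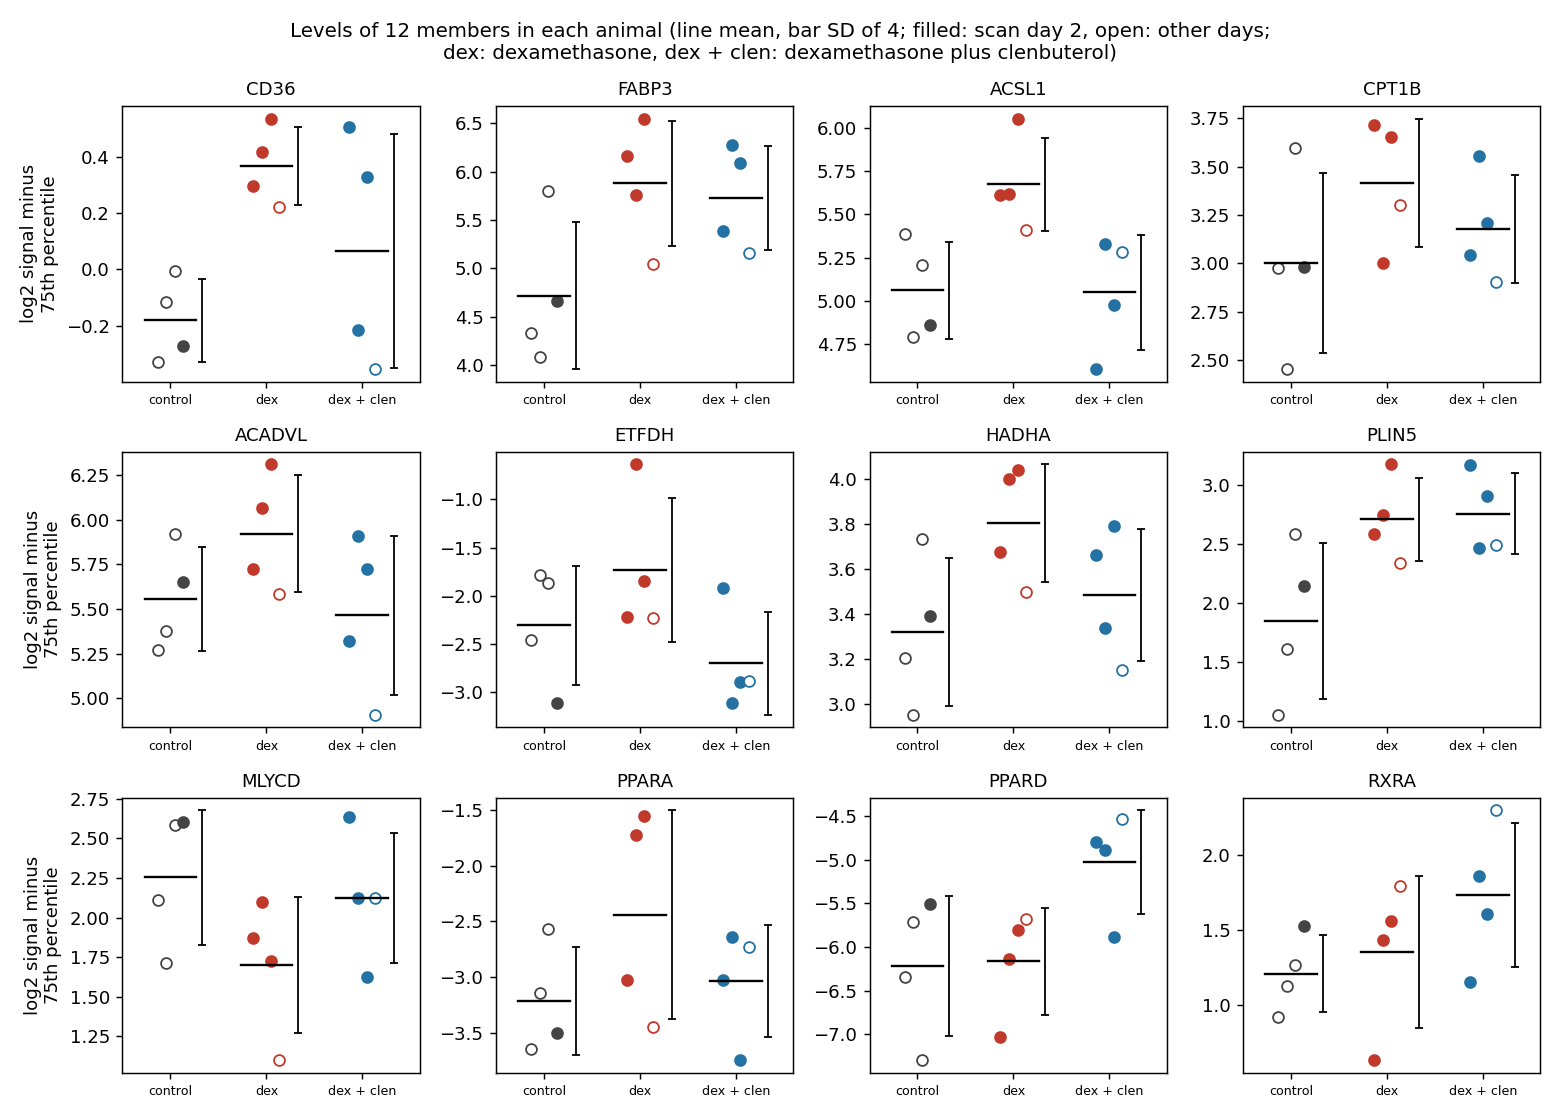
Log2 signal minus the array's 75th percentile (vertical axis, scale set per gene) for 12 members in each animal, by group, with the mean (line) and SD (bar) of 4; filled points were scanned on day 2. CD36 and ACSL1 are the genes whose 4 dexamethasone points lie above all 4 control points.

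The carnitine shuttle moves activated chains into mitochondria. After dexamethasone 4 of 5 of its genes lay above the controls with a median of 0.30, and the combination gave 3 of 5 and a median of 0.14. CPT1B, the muscle carnitine palmitoyltransferase that malonyl-CoA inhibits and that sets the pace of entry, read 2.98, 2.45, 3.59 and 2.98 in controls, 3.71, 3.0, 3.65 and 3.30 after dexamethasone, and 3.05, 3.55, 3.21 and 2.90 in the combination. The groups overlapped, with control replicate 3 close to the highest treated animal. The log2 changes were 0.41 ± 0.25 (SE) and 0.18 ± 0.25 (limma adjusted p = 0.544 and 0.81). Without control replicate 2 they were 0.23 and -0.01, and without control replicate 3, 0.61 and 0.37. Leaving out combination replicate 2 or 4 gave 0.05 or 0.27 for the combination.

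SLC25A20, the carnitine-acylcarnitine carrier of the inner membrane, was the steadiest gene of this step. It read 3.10, 3.01, 3.26 and 3.39 in controls, 3.07, 3.43, 3.31 and 3.33 after dexamethasone, and 3.23, 3.38, 3.45 and 3.29 in the combination. The 12 values span less than 0.5 units, and the 95% interval of the difference after dexamethasone ran from -0.22 to 0.40. CPT2, which returns the chain to CoA inside the mitochondrion, differed by 0.40 ± 0.28 and CRAT, which handles acetyl groups, by 0.30 ± 0.20 after dexamethasone (SE; limma adjusted p = 0.599 for both).

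MLYCD breaks down malonyl-CoA, the inhibitor of CPT1B. It was the member furthest below the controls after dexamethasone. It read 2.11, 1.71, 2.58 and 2.61 in controls, 1.87, 2.10, 1.73 and 1.1 after dexamethasone, and 2.63, 2.12, 1.62 and 2.12 in the combination. Dexamethasone replicate 4 was the lowest animal and the other 3 overlapped the controls. The log2 change was -0.55 ± 0.28 (SE) after dexamethasone and -0.13 ± 0.28 in the combination (limma adjusted p = 0.453 and 0.885). It was also of the same sign by scan day, at -0.71 within day 2 and -1.04 outside it.

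The acyl-CoA dehydrogenases take the first step of the spiral, each for its own chain length, and hand electrons to the flavoprotein ETFA with ETFB and from there to ETFDH in the inner membrane. After dexamethasone 7 of 8 of these genes lay above the controls with a median of 0.34, and in the combination 3 of 8 with a median of -0.03. ACADVL, the very long chain enzyme, read 5.27, 5.38, 5.92 and 5.65 in controls, 5.73, 6.07, 6.31 and 5.59 after dexamethasone, and 5.32, 5.91, 5.72 and 4.91 in the combination. The groups overlapped, with dexamethasone replicates 2 and 3 above every other animal. The log2 changes were 0.37 ± 0.25 (SE) and -0.09 ± 0.25 (limma adjusted p = 0.597 and 0.914).

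ACADSB, the enzyme of short branched chains, kept to a narrow band in controls. It read 3.69, 3.61, 3.53 and 3.54 in controls, 3.90, 3.55, 4.26 and 3.68 after dexamethasone, and 3.49, 3.48, 3.62 and 3.33 in the combination. Dexamethasone replicates 1 and 3 were the highest and combination replicate 4 the lowest. The combination differed from dexamethasone by -0.37 ± 0.16 (SE; limma adjusted p = 0.438), and a second probe gave -0.51, although the probes correlated at only 0.14 over the 12 arrays.

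ACADL, the long-chain enzyme, read -1.77, -1.98, -1.61 and -2.51 in controls, -2.34, -1.96, -1.55 and -2.18 after dexamethasone, and -2.24, -2.31, -1.45 and -1.95 in the combination. The 3 groups covered the same range, with log2 changes of -0.04 ± 0.26 (SE) and -0.02 ± 0.26. Medium-chain ACADM differed by 0.55 ± 0.29 and short-chain ACADS by 0.46 ± 0.38 after dexamethasone (limma adjusted p = 0.473 and 0.687). In the combination ACADM was at 0.01 ± 0.29 and ACADS at 0.30 ± 0.38.

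ETFDH, the ubiquinone reductase that closes this step, showed the widest gap between treated groups among the mitochondrial enzymes. It read -2.46, -1.79, -1.87 and -3.11 in controls, -2.22, -0.64, -1.84 and -2.23 after dexamethasone, and -1.92, -3.12, -2.89 and -2.88 in the combination. Dexamethasone replicate 2 stood highest, 3 of the 4 combination animals were below all dexamethasone animals, and combination replicate 1 was not. The combination differed from dexamethasone by -0.97 ± 0.41 (SE), 1.96-fold lower, and from control by -0.39 ± 0.41 (limma adjusted p = 0.408 and 0.724). ETFB read 3.53, 3.72, 4.10 and 4.04 in controls, 4.09, 4.29, 4.57 and 3.68 after dexamethasone, and 4.22, 4.07, 4.32 and 3.91 in the combination. Its log2 changes were close in both treated groups, 0.31 ± 0.21 and 0.28 ± 0.21 (SE; limma adjusted p = 0.597 and 0.607), with overlap. Its partner ETFA gave 0.10 ± 0.20 and -0.05 ± 0.20.

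The later steps of the spiral hydrate, oxidise and cleave the chain. After dexamethasone 7 of 7 of these genes lay above the controls with a median of 0.40. In the combination 4 of 7 did with a median of 0.01, and against dexamethasone 0 of 7 were higher, with a median of -0.41. HADHA, the alpha subunit of the trifunctional protein, read 3.20, 2.95, 3.73 and 3.39 in controls, 3.68, 4.00, 4.04 and 3.5 after dexamethasone, and 3.66, 3.34, 3.79 and 3.15 in the combination. Dexamethasone replicates 2 and 3 were above every other animal, and control replicate 3 lay among the treated. The log2 changes were 0.48 ± 0.21 (SE) and 0.17 ± 0.21 (limma adjusted p = 0.378 and 0.787), and a second probe, which correlated with the first at 0.98 over the 12 arrays, gave 0.51 and 0.19.

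HADH oxidises medium and short hydroxyacyl chains. It read 0.36, 0.00, 0.52 and 0.41 in controls, 0.59, 0.53, 0.64 and 0.32 after dexamethasone, and 0.20, -0.16, 0.44 and -0.15 in the combination. Dexamethasone replicates 1, 2 and 3 were above every other animal, and replicate 4 was within the control range. The combination differed from dexamethasone by -0.44 ± 0.18 (SE; limma adjusted p = 0.397), and dexamethasone from control by 0.20 ± 0.18 (limma adjusted p = 0.718).

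The remaining genes of these steps had log2 changes from 0.20 to 0.45 after dexamethasone. ACAA2, a mitochondrial thiolase, differed by 0.45 ± 0.23 and ECI1, an isomerase for unsaturated chains, by 0.43 ± 0.21 (SE; limma adjusted p = 0.448 and 0.432). ECHS1, the hydratase, gave 0.40 ± 0.26 and HADHB, the beta subunit of the trifunctional protein, 0.28 ± 0.25 (limma adjusted p = 0.568 and 0.718). DECR1, a reductase for unsaturated chains, gave 0.20 ± 0.18. In the combination against dexamethasone the same 5 genes lay between -0.44 and -0.11.

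The members that are peroxisomal or shared with peroxisomes had the lowest median of any role after dexamethasone. Of these members 4 of 4 lay above the controls with a median of 0.14, and the combination gave 4 of 4 with a median of 0.21. The 14 other peroxisomal genes measured, outside the members, had a median of 0.27 after dexamethasone. ECI2, an isomerase found in peroxisomes and mitochondria, read 0.08, 0.45, 1.08 and 0.31 in controls, 0.37, 1.18, 1.12 and 1.08 after dexamethasone, and 0.78, 0.83, 1.31 and 0.06 in the combination. Control replicate 3 matched the higher dexamethasone animals, and dexamethasone replicate 1 matched the lower controls. Against control ECI2 differed by 0.46 ± 0.29 (SE) and 0.27 ± 0.29 (limma adjusted p = 0.568 and 0.748).

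EHHADH, the L-type bifunctional enzyme, was dim and was well above background on 3 of 4 arrays in each group. It read -4.52, -5.02, -4.06 and -5.64 in controls, -4.87, -4.29, -4.35 and -5.64 after dexamethasone, and -4.38, -4.53, -4.76 and -4.67 in the combination. The groups overlapped, and the log2 changes were 0.02 ± 0.35 (SE) and 0.23 ± 0.35. A second probe for it was above background on 1 array. The thiolase ACAA1 gave 0.15 ± 0.16 and 0.06 ± 0.16, and the D-type bifunctional enzyme HSD17B4 gave 0.14 ± 0.18 and 0.20 ± 0.18.

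PLIN5 coats lipid droplets and ties them to mitochondria in oxidative muscle. It was the member with the lowest p in the combination against control. It read 1.05, 1.61, 2.58 and 2.14 in controls, 2.58, 2.74, 3.17 and 2.34 after dexamethasone, and 3.17, 2.46, 2.91 and 2.49 in the combination. Control replicate 3 overlapped the treated animals and the other 3 controls were below all 8 of them. The means were 1.85 ± 0.66 (SD, n = 4), 2.71 ± 0.35 and 2.76 ± 0.34. The log2 changes against control were 0.86 ± 0.31 (SE), 1.82-fold, and 0.91 ± 0.31, 1.88-fold (limma adjusted p = 0.278 and 0.299). The treated groups differed by 0.05 ± 0.31.

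The receptors did not share a pattern. PPARA read -3.64, -3.14, -2.56 and -3.5 in controls, -3.03, -1.73, -1.56 and -3.45 after dexamethasone, and -3.03, -2.64, -3.75 and -2.73 in the combination. Dexamethasone replicates 2 and 3 were far above the rest and replicates 1 and 4 lay among the controls. PPARA differed from control by 0.77 ± 0.43 (SE) and 0.18 ± 0.43 (limma adjusted p = 0.496 and 0.898).

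PPARD read -6.34, -5.71, -7.30 and -5.51 in controls, -7.03, -6.14, -5.80 and -5.68 after dexamethasone, and -4.80, -4.89, -5.89 and -4.53 in the combination. Its probe was well above background on 1 of 4 control arrays, 0 of 4 dexamethasone arrays and 3 of 4 combination arrays. It thus met the filter of 4 arrays only through the combination group. With dexamethasone readings raised to the lowest signal called well above background on their arrays, the combination mean was 1.88-fold higher. This is not a lower bound, since the combination mean includes an array that was not well above background. The fitted log2 changes of 1.19 ± 0.43 against control and 1.14 ± 0.43 against dexamethasone (SE; limma adjusted p = 0.323 and 0.357) rest on readings near background. With normexp background correction they were 0.18 and 0.30, and with the authors' values 0.39 and 1.08. Within scan day 2 the difference from control was 0.32. A second PPARD probe was above background on no array.

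RXRA, the shared partner, read 0.92, 1.13, 1.26 and 1.53 in controls, 0.63, 1.44, 1.56 and 1.80 after dexamethasone, and 1.15, 1.86, 1.61 and 2.30 in the combination. Combination replicates 2 and 4 exceeded all other animals and the groups overlapped. The log2 changes were 0.15 ± 0.29 (SE) and 0.52 ± 0.29 (limma adjusted p = 0.889 and 0.477). A second probe gave 0.31 and 0.53 and correlated with the first at 0.41 over the 12 arrays.

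**Figure D3:**
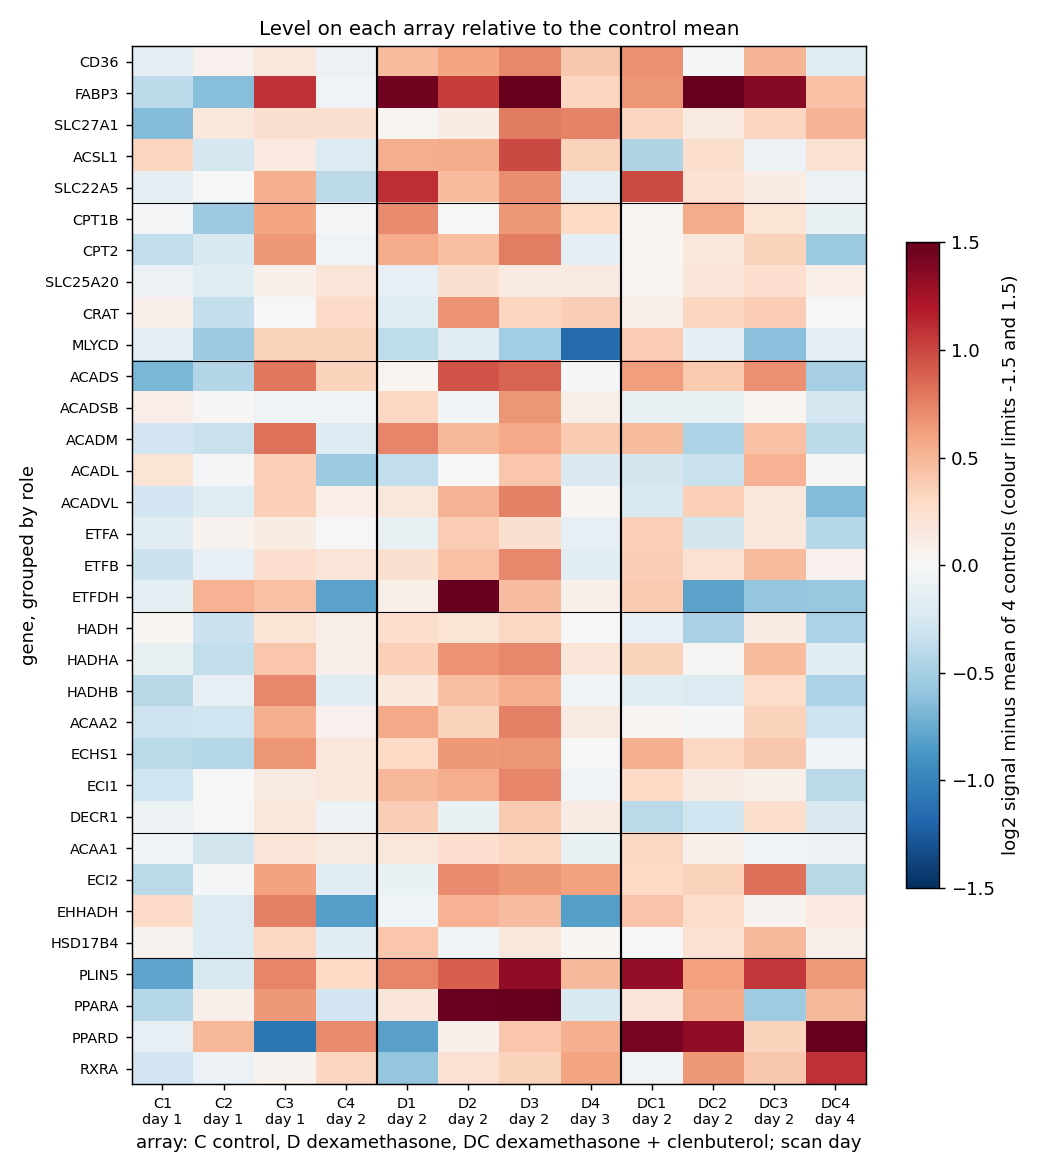
Log2 signal on each array minus the mean of the 4 controls (colour, limits -1.5 and 1.5) for the 33 members (rows, grouped by role), with the 12 arrays in columns, labelled by group, replicate and scan day. Control replicate 3 is warm over most rows and dexamethasone replicates 2 and 3 are the warmest treated arrays.

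Most members varied together from animal to animal, also within groups. Over the 12 arrays the median correlation between members was 0.40, and 448 of 528 pairs were above 0. With group means removed the median was 0.37, and between members and other genes it was 0.01. All arrays were scaled in the same way, the points differ in scan day, and the values are descriptions only. The members closest to the mean of the others were HADHA and ECHS1 (r = 0.93 for both), ETFB (0.89) and ACADS (0.88), and 15 of 33 exceeded 0.7. PPARD (-0.32), MLYCD (-0.04) and RXRA (-0.03) were below 0. With group means removed PPARD gave -0.49, RXRA -0.14 and MLYCD 0.46.

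The mean over the 33 members read 1.03, 1.08, 1.59 and 1.22 in the 4 controls, 1.46, 1.69, 1.85 and 1.31 after dexamethasone, and 1.5, 1.40, 1.51 and 1.2 in the combination. Control replicate 3 was higher than all animals but dexamethasone replicates 2 and 3, so the groups overlapped. The group means were 1.23 ± 0.25 (SD, n = 4), 1.58 ± 0.24 and 1.40 ± 0.14. Leaving out 1 animal moved the medians. Without control replicate 1, or without control replicate 2, the median difference after dexamethasone was 0.27 in place of 0.40. The combination's median of 0.17 against control moved by over 1.5 times in 6 of the fits with 1 array less: to 0.10, 0.04, 0.28 and 0.11 without control replicates 1, 2, 3 and 4, and to 0.11 and 0.10 without combination replicates 1 and 3. Between the treated groups it was -0.32 without dexamethasone replicate 4 and -0.10 without combination replicate 4, in place of -0.20.

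Scan day moved with these differences. Within scan day 2, where 3 dexamethasone arrays met 1 control, the median member difference was 0.42 and 28 of 33 lay above 0. Outside it, with 1 dexamethasone array against 3 controls, the median was 0.0705 and 21 of 33 lay above 0. A fit with scan day 2 against the other days as a block gave 0.20, with 31 of 33 above 0. The same values were, in the combination against control, 0.21 with 24 of 33, -0.15 with 12 of 33, and 0.07 with 19 of 33. Between the treated groups they were -0.19 with 7 of 33, -0.31 with 12 of 33, and -0.20 with 8 of 33. The treated groups were on different slides both within scan day 2 and outside it. CD36 kept its sign after dexamethasone at 0.69 within and 0.37 outside scan day 2, ACSL1 at 0.90 and 0.28, FABP3 at 1.49 and 0.31 and PLIN5 at 0.69 and 0.59. ETFDH and PPARA did not, at 1.55 and -0.19 and at 1.40 and -0.33. SLC22A5, CPT2, SLC25A20, CRAT, ACADL, ETFA, ETFB, HADHB, ACAA1, EHHADH, HSD17B4, PPARD and RXRA also changed sign. The remaining members kept their sign.

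**Figure D4:**
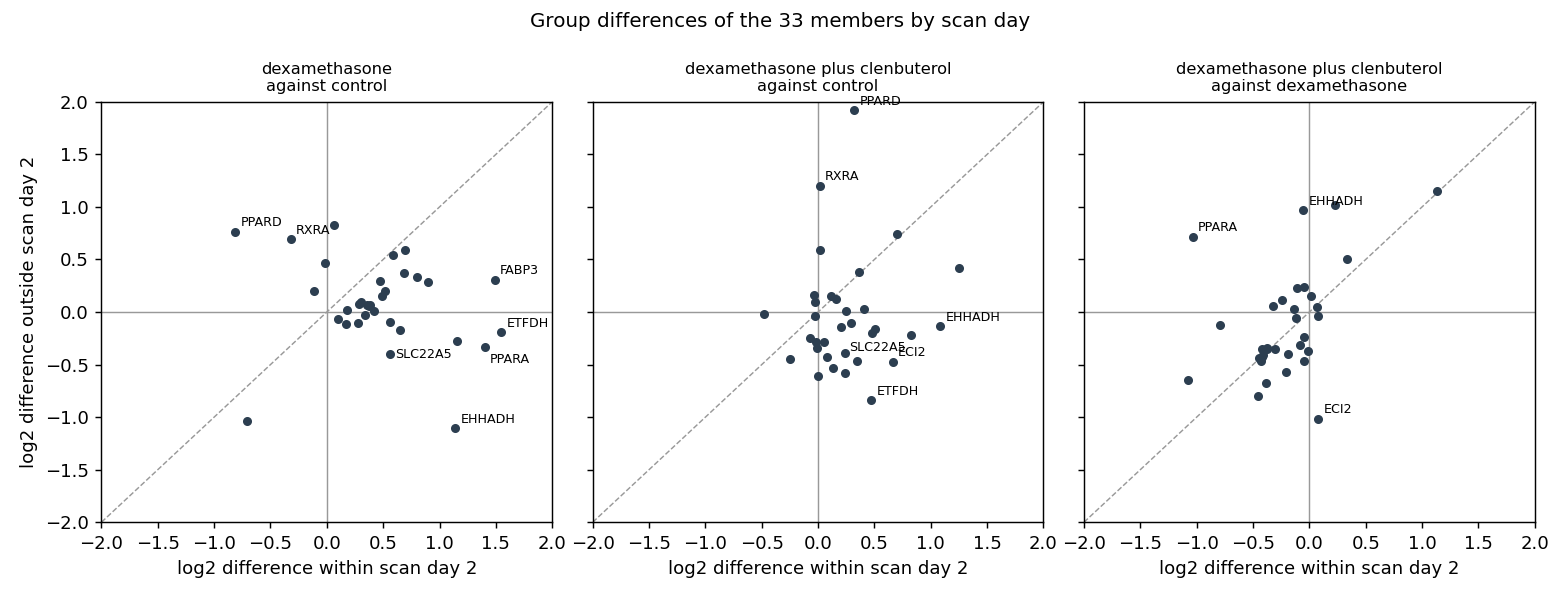
Log2 difference of each of the 33 members within scan day 2 (horizontal) against that outside scan day 2 (vertical) in the 3 comparisons; the dashed line marks equal values, and genes more than 1 unit apart are named. After dexamethasone 28 of 33 members lie to the right of 0 but 21 of 33 lie above 0 on the vertical axis.

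Each sample is a piece of whole muscle, in which fewer cells of a type and less RNA per cell cannot be told apart, so lists of fibre and cell type genes were read on the same arrays. The slow fibre list (9 of 10 genes measured) had a mean level of 4.48 to 5.63 in controls, 4.81 to 6.19 after dexamethasone and 5.19 to 6.16 in the combination. Its median difference was 0.71 after dexamethasone with 8 of 9 genes above 0, at 1.28 within scan day 2 and -0.25 outside it, and 0.26 in the combination. The fast fibre list (9 of 12 measured) had a median difference of -0.36 after dexamethasone and 0.25 in the combination, with means of 4.34 to 5.0, 3.48 to 5.5 and 4.61 to 5.78. Both medians turned sign by scan day, at -0.57 within day 2 and 0.41 outside it after dexamethasone, and at -0.24 and 0.26 in the combination. The part of fibre type in the member differences was not tested.

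Mitochondrial genes outside the pathway, such as CS, SDHA and COX4I1, were read as a measure of mitochondrial content. Of 19 genes, 18 lay above the controls after dexamethasone with a median of 0.24, 5 in the combination with a median of -0.08, and 0 were higher in the combination than after dexamethasone, with a median of -0.30. By scan day the medians were 0.08 within day 2 and 0.22 outside it after dexamethasone, and -0.12 and -0.26 in the combination. Between the treated groups they were -0.26 and -0.48. None of the 19 genes passed the test. The list's mean level ran from 3.92 to 4.44 in controls, from 4.10 to 4.63 after dexamethasone and from 3.82 to 4.37 in the combination, so the groups overlapped.

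Of the adipocyte genes 7 of 10 were measured. The markers ADIPOQ, LEP and THRSP were well above background on 1, 0 and 2 of the 12 arrays and were not measured. PLIN1 and CIDEC were measured, each well above background on 7 of the 12. The list's mean level ran from -4.11 to -3.01 in controls, from -4.39 to -2.13 after dexamethasone and from -4.61 to -2.99 in the combination. Its median difference was -0.20 after dexamethasone and 0.35 in the combination, with 0.69 within scan day 2 and -0.22 outside it after dexamethasone, and its part in the member values was not tested. Of its measured genes FABP4 and LIPE also stand in lists of pathway genes. The endothelial list (12 of 12 measured), whose cells also express CD36, had a median difference of 0.24 after dexamethasone and 0.44 in the combination, with mean levels of -0.94 to -0.51 in controls, -0.78 to -0.16 after dexamethasone and -0.45 to -0.15 in the combination. By scan day the endothelial medians were 0.02 within day 2 and 0.08 outside it after dexamethasone, and 0.24 and 0.23 in the combination. Smooth muscle genes (6 of 6 measured) had medians of 0.31 and 0.49. Leukocyte and fibroblast markers had median differences below 0 after dexamethasone, at -1.09 over 9 measured genes and -1.27 over 10. Dexamethasone replicate 1 was within the control range of both lists. Its leukocyte mean was -2.01, with controls from -2.55 to -1.98, and its fibroblast mean 1.09, with controls from 0.96 to 1.40. In each list 1 gene passed the test, CD3E and MMP2 (limma adjusted p = 0.0312 and 0.0364, and 0.114 for both with the 2-level scan day block).

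**Figure D5:**
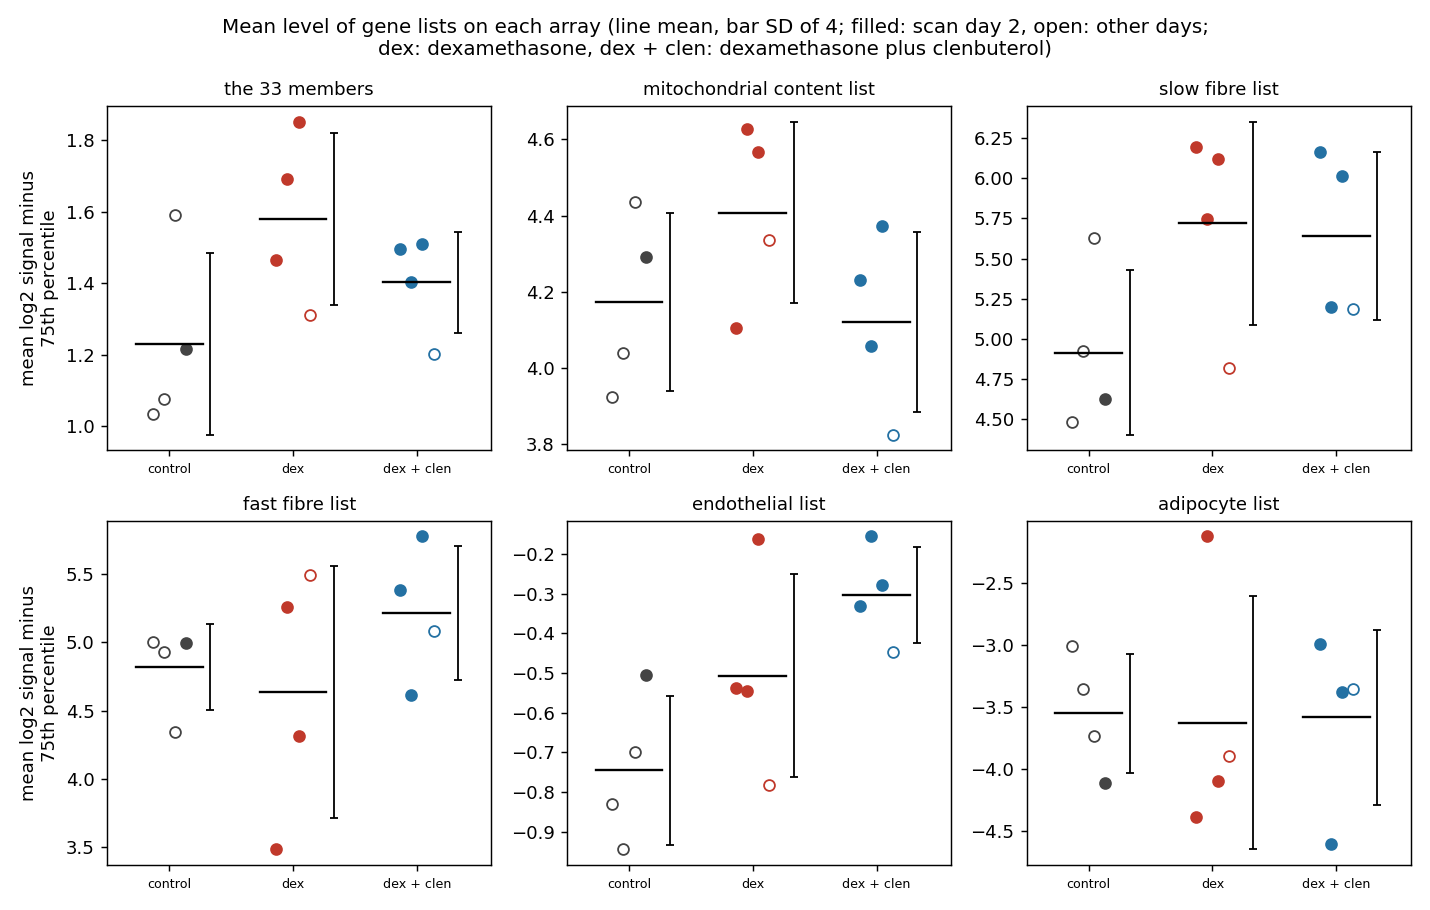
Mean log2 signal minus the 75th percentile of the 33 members and of 5 other gene lists on each array (vertical axis, scale set per list), by group, with the mean (line) and SD (bar) of 4; filled points were scanned on day 2. The member means run from 1.03 to 1.59 in controls, 1.31 to 1.85 after dexamethasone and 1.2 to 1.51 in the combination.

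Other genes of the pathway were read from lists outside the 33 members, and none of them passed the test in any comparison. After dexamethasone 9 of 13 other uptake and activation genes lay above the controls (median 0.14), 7 of 11 other genes of carnitine and malonyl-CoA control (0.16), 10 of 17 other genes of mitochondrial oxidation (0.04) and 11 of 14 other peroxisomal genes (0.27). The combination against control gave 7 of 13, 8 of 11, 6 of 17 and 9 of 14 in the same order. Of the PPAR partners and coregulators 13 of 19 lay above the controls after dexamethasone (median 0.16) and 10 of 19 in the combination (0.13). Of other PPAR targets and lipid droplet genes 11 of 14 lay above the controls after dexamethasone (median 0.26) and 9 of 14 in the combination (0.09). Outside scan day 2 the medians after dexamethasone were below 0 for other uptake and activation (-0.02, against 0.31 within it), carnitine and malonyl-CoA control (-0.09 and 0.13), mitochondrial oxidation (-0.06 and -0.05), peroxisomal genes (-0.03 and 0.45) and PPAR targets and lipid droplet genes (-0.02 and 0.42). The PPAR partners and coregulators gave 0.18 outside and -0.05 within it. In the combination the PPAR targets and lipid droplet genes gave -0.14 outside and 0.08 within it, and the peroxisomal genes -0.37 and 0.31.

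Among the PPAR targets and lipid droplet genes, PDK4 and UCP3 had lower means than the controls in both treated groups. PDK4, the kinase that spares glucose by shutting pyruvate dehydrogenase, read 4.24, 4.47, 4.54 and 5.26 in controls, 2.25, 3.68, 2.77 and 3.43 after dexamethasone, and 3.67, 2.75, 2.75 and 3.69 in the combination. Every treated animal was below every control, and the log2 changes of -1.60 ± 0.35 and -1.41 ± 0.35 (SE) did not pass (limma adjusted p = 0.0756 and 0.187). UCP3, an uncoupling protein of muscle mitochondria, gave -1.05 ± 0.58 and -0.81 ± 0.58 (limma adjusted p = 0.498 and 0.596). ANGPTL4, a lipoprotein lipase inhibitor, gave 0.61 ± 0.61 and -0.54 ± 0.61 (limma adjusted p = 0.749 and 0.753). Its difference in the combination was 0.41 within scan day 2 and -1.58 outside it.

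ACACB makes the malonyl-CoA that MLYCD removes. It read -0.12, 0.18, 0.37 and 1.71 in controls, -2.5, -0.21, -0.94 and -0.87 after dexamethasone, and 0.47, -1.57, -1.35 and -1.19 in the combination. All dexamethasone animals were below all controls, and 3 of 4 combination animals were. ACACB differed from control by -1.67 ± 0.56 and -1.45 ± 0.56 (SE; limma adjusted p = 0.24 and 0.354). CPT1A, the liver form of the carnitine palmitoyltransferase, gave -0.28 ± 0.28 and -0.18 ± 0.28. In the combination CPT1A turned sign by scan day, at -0.78 within day 2 and 0.35 outside it. The coactivator PPARGC1A gave -0.09 ± 0.84 after dexamethasone and -1.69 ± 0.84 in the combination (limma adjusted p = 0.98 and 0.443). PPARGC1A turned sign by scan day in both, at -0.48 within day 2 and 1.24 outside it after dexamethasone, and at -2.30 and 0.34 in the combination.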

How the data were processed

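Total RNA of biceps brachii from 12 bulls, 4 per group by the label on treatment, was labelled with Cy3 and hybridised, per the labels' protocols. The deposited scanner files hold spot intensity on a linear scale from Agilent Feature Extraction 9.5.1.1, per the file headers. The value table the authors deposited holds intensity too and ranks each array's spots as the scanner signal does. No source used here describes how it was made.

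The processed signals were put on a log2 scale, scaled by subtracting the 75th percentile per array, and averaged over a probe's spots. Outlier spots were left out. A probe had to be well above background on 4 or more of the 12 arrays (14703 of 21475 were), with the brightest per gene (939 genes had several). Names came from the array's gene number, accession, symbol or human match through a RefSeq table (ARS-UCD2.0), from which no coordinates were taken. CD36, ACADM, ETFDH, EHHADH and RXRA were named through the human match.

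Differences were tested with limma 3.58.1 under R 4.3.3: 3 group means over 12 arrays, eBayes, Benjamini-Hochberg over 13668 genes in each of 3 contrasts, two-sided. Replicate numbers follow the listing order and pair nothing. The fit was tested on simulated data. Values in every array are printed for the 5 members of smallest p in each contrast, the members of largest and smallest change in each role (from dexamethasone against control) and CD36, CPT1B, ACADVL, HADHA, PPARA and PPARD. Of the other lists, genes called and PDK4, UCP3, ANGPTL4, CPT1A, ACACB and PPARGC1A were named, and 1 further gene of that rule is not reported here. The members and lists were chosen with earlier results of these data known. Alternatives were normexp (offset 50), quantile normalization, the authors' values, other filters, the mean of a gene's probes, 2 groups per fit, an intensity trend with a robust prior, slide or scan day as a block, and each array left out. No probe sequences were used.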

Additional observations from a re-analysis of the deposited data

Results flagged for a closer look

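Among 63 groups of 4 values (20 members with values in every array and the mean over all members, in 3 groups each), 2 held an animal far from the other 3 by Dixon's ratio, and chance gives about 1 in 20 groups. SLC27A1, the fatty acid transport protein, read 1.70 in control replicate 1 and 2.51 to 2.59 in the other 3 controls. ECI2, the isomerase of unsaturated chains, read 0.37 in dexamethasone replicate 1 and 1.08 to 1.18 in the other 3 dexamethasone animals.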

How the results depend on the processing

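No member passed the test (limma, adjusted p under 0.05) under any of the alternatives run. The genes called over the whole array moved more. For dexamethasone against control, 84 became 51 with the authors' values, 25 with no filter on dim probes, 13 with the 2-level scan day block and 0 with every scan day as a block, and 24 to 259 with 1 array left out. For the combination against control, 6 became 3 with quantile normalization or only the 2 groups, 2 with the mean of a gene's probes, 0 with no filter, the filter on all 12 arrays, the slide block and either scan day block, and 0 to 12 with 1 array left out. For the combination against dexamethasone, 2 became 1 with normexp or the filter on all 12 arrays, 0 with quantile normalization, no filter, the mean of probes, only the 2 groups, the slide block and either scan day block, and 0 to 74 with 1 array left out. In the 29 fits with 0 calls, 1013 to 1824 genes had an unadjusted p under 0.05. The median member difference outside scan day 2 was 0.0705 after dexamethasone and -0.15 in the combination. Of 1374 values of the 20 named members under the alternatives, 68 had another sign, and of 120 within or outside scan day 2, 25 had; the causes were not tested. With 1 array left out, 29 to 32 members lay above 0 after dexamethasone, 18 to 27 in the combination and 5 to 13 between the treated groups. No paired analysis was possible because the labels give no replicate numbers shared between groups. Only 4 animals per group, picked for RNA quality, and the dim signal of PPARD and EHHADH limit what these arrays can show.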
